A study of Mus musculus with 2 samples.

Results

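Ribosomal protein genes encode the proteins of the cytoplasmic ribosome, and in a lymphocyte their messages make up a large part of all mRNA. In the mouse regulatory T cells (Tregs) profiled here, 83 genes of this family gave 31.0% of all unique molecular identifiers (UMIs, each standing for 1 captured mRNA molecule) in cells with an induced CD25 knockout and 39.3% in CD25 wild-type cells. The members were taken by symbol: names starting with Rps or Rpl and a digit, Rplp and a digit, and Rpsa, without the Rps6k kinases and without pseudogene symbols ending in -ps. Of 86 such symbols among the 32285 genes listed, 83 reached 10 UMIs per 1000000 UMIs of the library (CPM) in at least 1 library. The 3 that did not were Rpl3l, Rpl10l and Rpl39l. Of the 83, 33 belong to the small subunit and 48 to the large subunit with its stalk. The remaining pair, Rpl7l1 and Rps19bp1, match by symbol but are not among the classical subunits of the ribosome.

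The study induced loss of CD25, a receptor chain through which Tregs sense interleukin-2, in mouse Tregs. The CD25KO library came from mice labelled CD25FL/FL-tdTomato+/+-Foxp3eGFPCretERT2+/+ and the CD25WT library from mice labelled CD25WT/WT-tdTomato+/+-Foxp3eGFPCretERT2+/+. Both groups carried the tdTomato reporter and the tamoxifen-inducible Cre under Foxp3, and both received tamoxifen at 2 mg/kg by the intraperitoneal route for 5 days, with spleens taken on day 10. Each group is 1 library from 2 pooled spleens, sorted on viability, CD4, GFP and tdTomato. The CD25KO cells alone were also gated for low CD25, so genotype and gate cannot be told apart, and no difference below has a replicate check. All intervals are 95% intervals of counting error only.

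After removal of cells with under 500 detected genes or over 10% mitochondrial UMIs, 6952 CD25KO and 6110 CD25WT cells remained, with 35726778 and 35436738 UMIs. The median depth was 4150 UMIs per CD25KO cell and 5229 UMIs per CD25WT cell. Il2ra, which encodes CD25, stood at 32.4 CPM in CD25KO and 125 CPM in CD25WT, although the tags counted may lie outside the deleted part and the CD25 gate acts on the same gene. Foxp3 stood at 21.6 and 34.1 CPM, and 690 CD25KO cells (9.93%) and 971 CD25WT cells (15.9%) had a Foxp3 UMI. In the B cell-like cluster of both libraries together, which should lack it, Foxp3 stood at 9.43 CPM. T cell markers were present in both libraries, with Cd3e at 891 and 657 CPM and Cd4 at 170 and 118 CPM in CD25KO and CD25WT. Of all barcodes, 107 occurred in both libraries, and 26 of these were kept in both.

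The ribosome needs its proteins in equal amounts, and their mRNAs are translated as a group. Many of them start with a terminal oligopyrimidine tract, a run of C and T (U in the RNA) right at the start of transcription. The kinase mTORC1, which in T cells acts downstream of interleukin-2 and antigen signals, raises the translation of these messages, and the protein LARP1 binds the tract when mTORC1 is off. Quiescent and central T cells are known for a high share of ribosomal protein mRNA, while activated and effector cells spend more of their mRNA on other genes.

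The start of transcription, as RefSeq places it in build GRCm38.p6, is shown for some of the genes named in the results below. Each line gives 30 bases on the gene's strand, 10 before the annotated start and 20 from it on, with the longest run of C and T in capitals. The genes are the member that was lowest in CD25KO cells (Rpl35), a triplet of related genes with opposite ratios (Rps27, Rps27rt, Rps27l), a pair of near-identical proteins with different ratios (Rpl36a, Rpl36al), and a member close to the middle of the family (Rps6).
Rpl35, chr2:39005112-39005141, minus strand: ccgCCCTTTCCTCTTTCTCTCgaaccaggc
Rps27, chr3:90213629-90213658, minus strand: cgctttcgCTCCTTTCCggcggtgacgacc
Rps27rt, chr9:114982720-114982749, minus strand: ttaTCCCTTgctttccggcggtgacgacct
Rps27l, chr9:66946076-66946105, plus strand: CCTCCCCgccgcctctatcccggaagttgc
Rpl36a, chrX:134585644-134585673, plus strand: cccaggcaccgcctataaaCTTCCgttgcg
Rpl36al, chr12:69184048-69184077, minus strand: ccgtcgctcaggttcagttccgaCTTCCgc
Rps6, chr4:86857348-86857377, minus strand: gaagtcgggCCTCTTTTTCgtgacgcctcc
Rpl35, Rps27 and Rps6 have a long tract across the start, whereas Rps27l, Rpl36a and Rpl36al have a short one in this window. In windows of the same size not printed here, the longest run was 3 bases in Rpl41, 4 in Rps28 and 6 in Rps2. It was 10 bases in Rpl22l1 and 11 in Rps12.

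RefSeq windows were found for 63 of the 83 members. Between 10 bases before and 50 bases after the start, the median longest run of C and T was 10 bases in members, against 5 bases in the 5885 other genes past 10 CPM. A run of at least 8 bases was present in 44 members (69.8%), against 23.1% of the other expressed genes and 24.0% of all 27025 genes with a window. The motif CTTTC, read on the gene's own strand since the tract acts in the RNA, was present in 28 members (44.4%), against 7.22% of the other expressed genes and 8.48% of all genes. A match describes these letters and does not show that a factor binds there.

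The first question the design allows is how much of the mRNA in each library is ribosomal protein mRNA. Members gave 11088722 UMIs in CD25KO, a share of 31.0% (31.02% to 31.05%), and 13930080 UMIs in CD25WT, a share of 39.3% (39.29% to 39.33%). The difference of -8.27 percentage points is far outside the counting error, and the variation between animals is unknown. Single cells spread widely in both libraries: the middle 50% of CD25KO cells lay between 25.2% and 36.1% with a median of 30.3%, and the middle 50% of CD25WT cells between 33.2% and 45.1% with a median of 39.9%. Counted as UMIs, which also follow the depth of each library, a CD25KO cell held on average 1595 ribosomal protein UMIs and 3544 other UMIs. A CD25WT cell held 2280 ribosomal protein UMIs and 3520 other UMIs. The lower share in CD25KO thus goes with fewer ribosomal protein UMIs per cell. Over cells of all states, the mean number of other UMIs was nearly the same. The medians of ribosomal protein and other UMIs were 1292 and 2823 in CD25KO cells and 2070.5 and 3102.5 in CD25WT cells. The median of other UMIs was thus lower in CD25KO.

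The depth of a cell moves with its share in the CD25WT library. Across cells, Spearman's rho between share and UMIs was 0.09 in CD25KO and 0.29 in CD25WT, a description over cells that share a library. Cells were therefore also compared at matched depth. The share was lower in CD25KO in all 6 depth bins. In cells of 4500 to 7000 UMIs it was 31.6% in CD25KO and 40.9% in CD25WT. In cells of 2000 to 3000 UMIs it was 29.7% in CD25KO and 32.8% in CD25WT. The mitochondrial share of UMIs, a sign of RNA quality, was 4.71% in CD25KO and 4.40% in CD25WT, and its part in the difference was not tested.

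**Figure D1:**
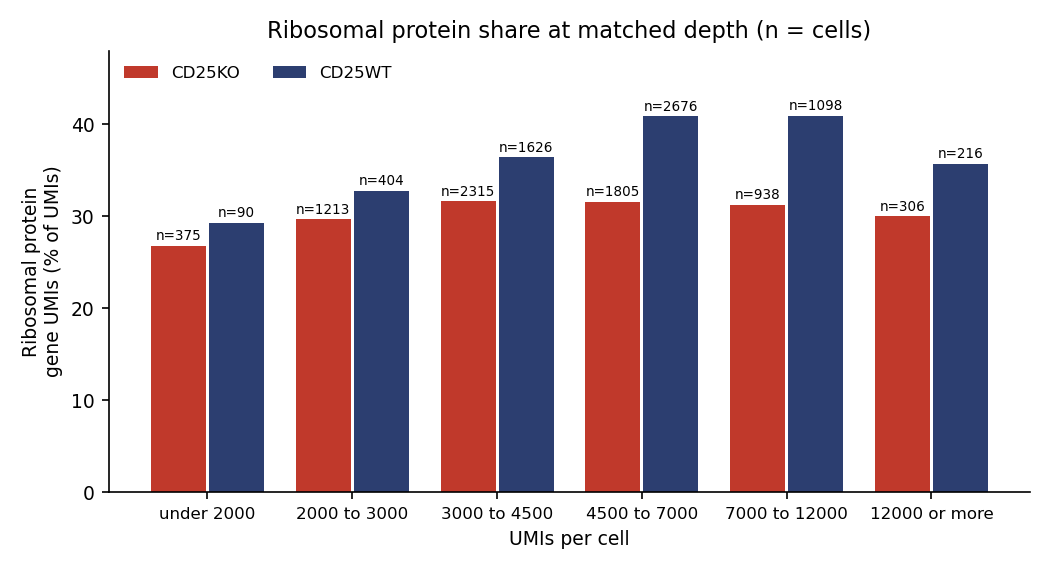
Bars give the share of UMIs from the 83 ribosomal protein genes (y axis, percent, from 0) in cells grouped by UMIs per cell (x axis), CD25KO in red and CD25WT in blue, with the number of cells above each bar. The CD25KO bar is the shorter one in every group, by the most at 7000 to 12000 UMIs (31.3% in CD25KO and 40.9% in CD25WT).

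The second question is how the share follows the state of the cell. Both libraries were clustered together without ribosomal protein genes among the features, which gave 15 clusters, and clusters were named from lists of marker genes. In both libraries a central-like cluster, named from markers of recirculating cells such as the lymph node homing receptor gene Ccr7, had the highest share, and the cluster led by Sostdc1 had the lowest share among T cells. The Sostdc1-led cluster carried the list of follicular regulatory markers, but its Foxp3 level of 11.2 CPM was near the 9.43 CPM of B cell-like cells. Il4, Bcl6, Cxcr5, Tox2 and Ascl2 were among its leading genes, which follicular helper T cells are known for too, so it is called here by its leading gene. The central-like cluster led by Ly6c1 had a share of 44.4% in CD25KO (354 cells) and 46.1% in CD25WT (1277 cells). The central-like cluster led by Satb1 had 38.5% in CD25KO (164 cells) and 42.0% in CD25WT (970 cells). The effector-like cluster led by the chemokine gene Ccl5 had 26.4% in CD25KO (1207 cells) and 27.7% in CD25WT (135 cells). The Sostdc1-led cluster had 25.9% in CD25KO (594 cells) and 25.9% in CD25WT (223 cells). The span between the Ly6c1-led and the Sostdc1-led cluster was thus wider than the difference between the libraries.

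The other T cell clusters lay between these. The interferon response-like cluster, led by Ifit3, had 34.8% in CD25KO (334 cells) and 40.3% in CD25WT (281 cells), which was the widest gap among clusters with at least 100 cells in both libraries. The recently stimulated-like cluster led by the early response gene Nr4a1 had 36.3% in CD25KO and 39.6% in CD25WT, and the one led by Egr2 had 29.4% in CD25KO and 31.2% in CD25WT. The effector-like cluster led by Ifitm1 had 29.3% in CD25KO and 32.1% in CD25WT. Its cells held a median of 3979 UMIs outside the family in CD25KO and 3282.5 in CD25WT. In Ly6c1-led cells that median was 2176.5 in CD25KO and 2745 in CD25WT, so its direction differed between clusters. The unnamed clusters led by Naip5 and Gbp2b had 35.4% and 36.0% in CD25KO, against 37.2% and 37.7% in CD25WT. Cycling-like cells had 27.1% in CD25KO (251 cells) and 31.5% in CD25WT (79 cells), at a median depth of 13994 UMIs in CD25KO and 15479 UMIs in CD25WT. The unnamed cluster led by Lrrc32, which also had Il2ra among its leading genes, held 34 cells in CD25KO (40.9%) and 891 cells in CD25WT (42.6%). Cells of other lineages were few: the B cell-like cluster held 73 CD25KO and 68 CD25WT cells at 33.5% and 33.7%, and the erythroid-like cluster held 17 CD25KO and 28 CD25WT cells at 16.7% and 14.8%.

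**Figure D2:**
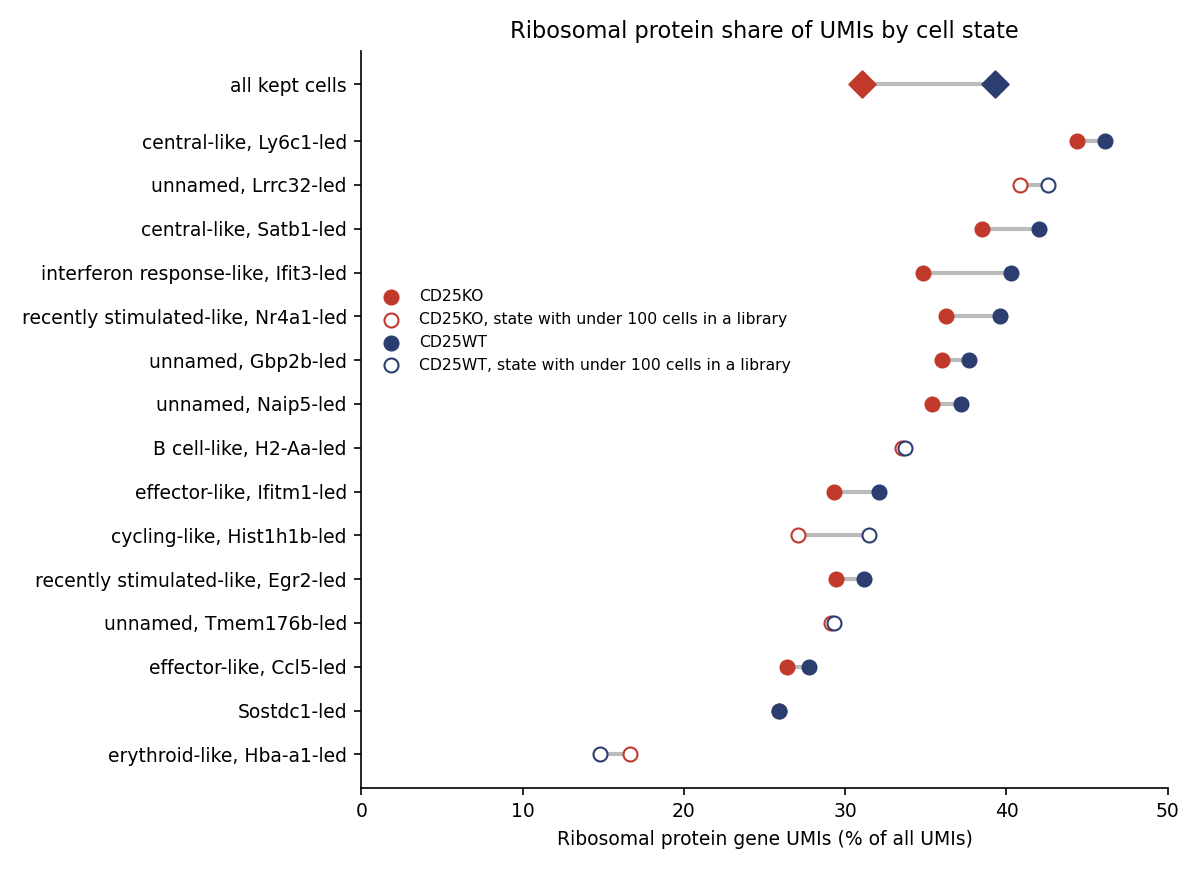
Each line is a cluster, with the share of UMIs from ribosomal protein genes on the x axis (percent, from 0), CD25KO in red and CD25WT in blue. Open circles mark clusters with under 100 cells in a library, and diamonds give all kept cells (31.0% in CD25KO and 39.3% in CD25WT). Clusters keep nearly the same order in both libraries, and the gap within a cluster is smaller than the gap between the libraries.

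Of the 10 clusters with at least 100 cells in both libraries, 9 had a lower share in CD25KO with intervals that did not overlap, while the Sostdc1-led cluster had 25.9% in both libraries with intervals that did. These shares are not matched for depth. In Ly6c1-led cells of 3000 to 4500 UMIs the share was 43.5% in CD25KO and 43.0% in CD25WT. At 4500 to 7000 UMIs it was 46.0% and 46.7%. In Ccl5-led cells of the same depths it was 26.1% and 25.9% in CD25KO, against 27.2% and 30.1% in CD25WT (66 and 23 CD25WT cells). The part of depth in the gaps within clusters was not tested. The differences within clusters spanned -5.47 to 0.00 percentage points with a median of -1.80, against -8.27 for all cells. The mix of states accounted for the rest by arithmetic: central-like cells led by Ly6c1 were 5.09% of CD25KO and 20.9% of CD25WT cells, and effector-like cells led by Ccl5 were 17.4% of CD25KO and 2.21% of CD25WT cells. With each cluster weighted by its part of the CD25WT UMIs, the share was 37.0% in CD25KO and 39.3% in CD25WT, so that 28.4% of the difference was kept. The Lrrc32-led cluster has 5771478 of the 35436738 CD25WT UMIs in that weighting, while its CD25KO value rests on 34 cells. With the CD25KO mix in place of the CD25WT mix, the share was 31.0% in CD25KO and 33.3% in CD25WT, and 27.6% of the difference was kept. The low-CD25 gate could set the mix of states in the CD25KO library, and its part in the difference was not tested.

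The same step between states was seen gene by gene inside each library. Effector-like cells led by Ccl5 had lower CPM than central-like cells led by Ly6c1 for 80 of 83 members in CD25KO, where 16.6% of all genes past 10 CPM did. The same held for 80 of 83 members in CD25WT, where 17.0% of all genes did. The median log2 ratio between these clusters was -0.73 in CD25KO and -0.70 in CD25WT. At least 1.5-fold lower were 65 members in CD25KO (5.10% of all genes) and 59 members in CD25WT (5.92% of all genes). The sign of the ratio was the same in both libraries for 83 of 83 members. For Sostdc1-led over the same central-like cells, 80 members were below 0 in CD25KO (16.3% of all genes) and 80 in CD25WT (14.1% of all genes). Of these, 64 members were at least 1.5-fold lower in CD25KO (6.09% of all genes) and 68 in CD25WT (5.56% of all genes), with medians of -0.75 and -0.82.

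The 3 members above 0 in that step were Rps27l, Rpl7l1 and Rps19bp1. Rps27l, a relative of Rps27 and a known p53 target, had a log2 ratio of effector-like over central-like cells of 0.80 (0.58 to 1.02) in CD25KO and 0.31 (0.00 to 0.61) in CD25WT. Rpl7l1, which resembles Rpl7 and acts in ribosome assembly, had 0.59 (0.19 to 1.02) in CD25KO and 0.30 (-0.27 to 0.83) in CD25WT. Rps19bp1, which encodes a protein that binds RPS19, had 0.57 (0.05 to 1.13) in CD25KO and 0.24 (-0.52 to 0.92) in CD25WT. The intervals of Rpl7l1 and Rps19bp1 reach below 0 in CD25WT. The small subunit gene Rps12 was the classical member with the smallest step, at -0.09 in CD25KO and -0.09 in CD25WT. At the other end stood the small subunit gene Rps20, at -1.17 in CD25KO and -1.18 in CD25WT.

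**Figure D3:**
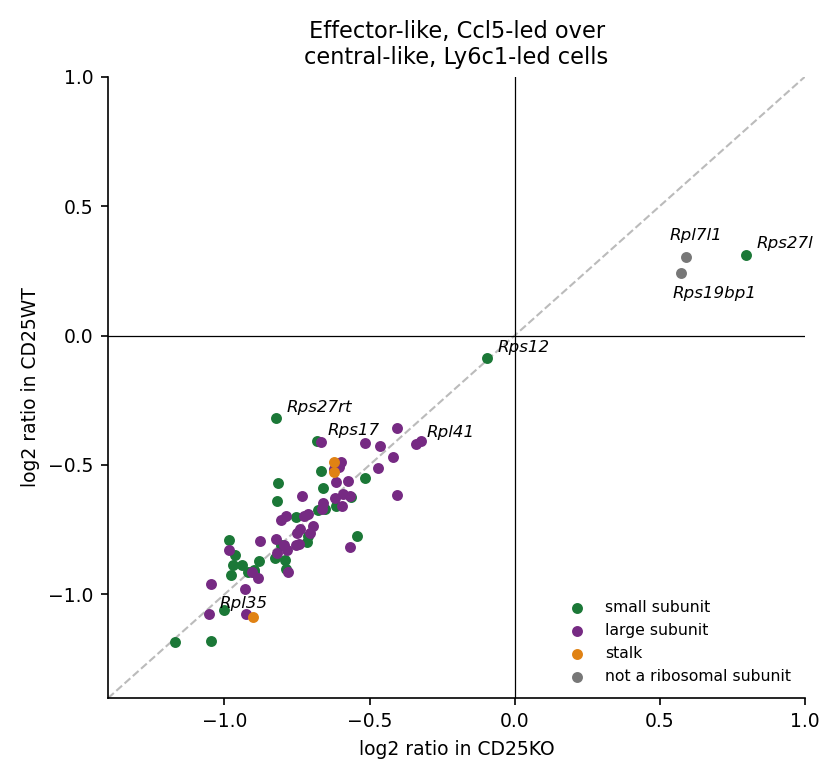
Each point is a ribosomal protein gene, with the log2 ratio of CPM in effector-like, Ccl5-led over central-like, Ly6c1-led cells within CD25KO on the x axis and within CD25WT on the y axis, coloured by subunit. The dashed line marks equal ratios. Of 83 genes, 80 lie below 0 on both axes, and Rps27l, Rpl7l1 and Rps19bp1 lie above 0 on both.

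The third question is whether single members depart from the group. Over all kept cells, 78 of 83 members had lower CPM in CD25KO than in CD25WT, where 17.2% of all 7436 genes past 10 CPM did. The median log2 ratio of members was -0.33 (quartiles -0.40 and -0.26), against 0.22 for all genes. The small subunit had a median of -0.34 and the large subunit -0.32. By size, 1 member was at least 1.5-fold lower in CD25KO (1.73% of all genes), and 0 members were at least 1.5-fold higher (11.6% of all genes). CPM values add up to the same total in both libraries, so a lower family share raises the CPM of all other genes. With TMM factors, which scale on genes of intermediate ratio, the median of all genes was -0.01, the members' median was -0.55, 81 of 83 members were below 0 (51.6% of all genes) and 30 were at least 1.5-fold lower (3.70% of all genes). The distance between the members' median and that of all genes was -0.55. It is the same on both scales by arithmetic, since the factors scale all genes of a library alike. Standardised to the CD25WT mix of states, the median log2 ratio of members was -0.09, against 0.07 for all genes, and 74 members were below 0 (35.2% of all genes). On that scale 1 member was at least 1.5-fold lower (0.901% of all genes), which was Rpl35, and 1 was at least 1.5-fold higher (3.36% of all genes), which was Rps27rt.

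Within single states the count depended on the state. In the interferon response-like cluster 80 members were below 0 (31.0% of all genes), with a median log2 ratio of -0.20. In the central-like clusters led by Satb1 and by Ly6c1, 78 members (33.4% of all genes) and 61 members (37.6% of all genes) were below 0. In the recently stimulated-like cluster led by Egr2, 75 members were below 0 (43.2% of all genes). In the effector-like cluster led by Ccl5, 59 members were below 0 (48.4% of all genes), with a median of -0.05. In the Sostdc1-led cluster, 37 members were below 0 (50.4% of all genes), with a median of 0.01, so the family did not lie to either side there.

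By mean CPM of the libraries, which for end-tag counts is not divided by gene length, the highest members were the small subunit genes Rps29, Rps24 and Rps27. Rps29 had 8773 CPM in CD25KO and 11663 CPM in CD25WT, Rps24 had 8022 CPM in CD25KO and 11402 CPM in CD25WT, and Rps27 had 7302 CPM in CD25KO and 9487 CPM in CD25WT. Their log2 ratios were -0.41, -0.51 and -0.38, against -0.34 for the family total. Rps24 was the lowest of these relative to the family, with a log2 ratio of its share of all ribosomal protein UMIs of -0.17 (-0.17 to -0.16) in all kept cells. After standardisation that value was -0.04, and its interval was below 0 in 5 of 10 clusters. The stalk genes Rplp0, Rplp1 and Rplp2, which recruit translation factors, had log2 ratios of -0.28, -0.22 and -0.26. Rpsa, the laminin receptor and a small subunit protein, had -0.21, and Rps27a, made as a fusion with ubiquitin, had -0.27.

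**Figure D4:**
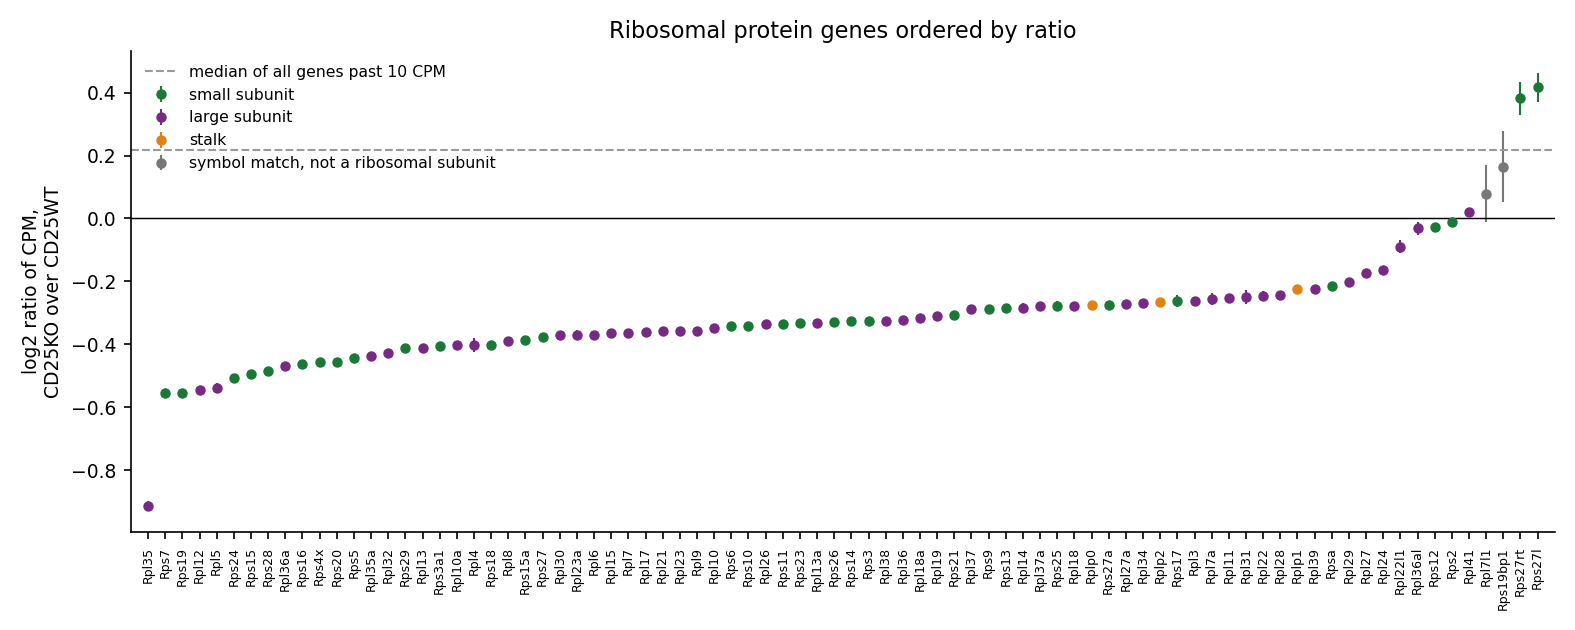
The genes, without 1 that is not reported here, are ordered by the log2 ratio of CPM in CD25KO over CD25WT (y axis), with 95% counting intervals as bars and colours for the subunit. The dashed line is the median of all genes past 10 CPM, 0.22. Rpl35 stands alone at -0.91, and Rps27rt (0.38) and Rps27l (0.42) are at the upper end.

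Since most members had ratios near that of the family total, a departure is given here as the log2 ratio of a gene's share of all ribosomal protein UMIs. Rpl35, Rps27rt, Rpl41 and Rps2 were picked among members with the same direction in all 10 clusters. That shared direction was thus fixed by the choice. Rpl35, a large subunit protein near the exit of the nascent chain, had 59150 UMIs or 1656 CPM in CD25KO and 110479 UMIs or 3118 CPM in CD25WT. The log2 ratio was -0.91 (-0.93 to -0.90), which is a 1.88-fold lower level in CD25KO. Its share of ribosomal protein UMIs was 0.53% in CD25KO and 0.79% in CD25WT, a log2 ratio of -0.57 within the family. That within-family ratio was below 0 with its interval in 10 of 10 clusters, between -0.60 and -0.39, and -0.54 after standardisation. In central-like cells led by Ly6c1 Rpl35 stood at 2385 CPM in CD25KO and 3765 CPM in CD25WT, and in Sostdc1-led cells at 1359 CPM in CD25KO and 1779 CPM in CD25WT. The value in CD25KO is the lower one in each cluster, whether the family as a whole is high or low there.

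Rpl35 lies on chromosome 2 (GENCODE release on the same build, 39001580 to 39005624, minus strand), and Il2ra lies on the same chromosome at a distance of 27.3 Mb. The gene next to it, Arpc5l, overlaps its 5′ end on the other strand and had a log2 ratio of 0.24. Within 200 kb, Golga1, Scai and Ppp6c had 0.12, 0.43 and 0.24, and the other members on chromosome 2, Rpl12, Rps21 and Rpl7a, had -0.55, -0.31 and -0.26. The lower level was thus seen in Rpl35 and not in its measured neighbours. The value carries a limit: the last 150 bases of Rpl35 are shared with the copy Gm2000 (100% identity over 149 bases), and reads from a shared stretch cannot be assigned. The strain backgrounds of both lines are not given in the sources used here. A sequence difference between the lines in such a shared end cannot be told apart from the knockout, here or for Rps27rt and Rpl41, whose copies are given with them. Gm2000 had 138 CPM in CD25KO and 109 CPM in CD25WT, a log2 ratio of 0.35 that was above 0 in 10 of 10 clusters, against Rpl35. With both genes added up, the log2 ratio was -0.85 (-0.86 to -0.83).

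Rps27rt, a retrogene copy of Rps27 on chromosome 9, stood at the other end, and its log2 ratio of CPM stayed above 0 with TMM factors (0.16). It had 6531 UMIs or 183 CPM in CD25KO and 4972 UMIs or 140 CPM in CD25WT, a log2 ratio of 0.38 (0.33 to 0.44). Within the family the log2 ratio was 0.72, with the interval above 0 in 10 of 10 clusters, between 0.38 and 0.94. Of the UMIs of Rps27 and Rps27rt together, Rps27rt took 2.44% in CD25KO and 1.46% in CD25WT. This fraction lay between 2.16% and 2.58% in the CD25KO clusters and between 1.35% and 1.71% in the CD25WT clusters, so the ranges did not overlap. The start windows of both genes printed above share a run of bases, and the ends of their transcripts match too (100% identity over 121 bases of Rps27rt), so the split of reads between them is uncertain. Rps27 with Rps27rt had a log2 ratio of -0.36, close to that of the family total.

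Rpl41, the shortest of the ribosomal proteins, was the large subunit gene with a ratio above 0 when all UMIs are the total, and below 0 with TMM factors (-0.20). It had 6675 CPM in CD25KO and 6583 CPM in CD25WT, a log2 ratio of 0.02 (0.01 to 0.03) and of 0.36 within the family. After standardisation the ratio inside the family was 0.15. Within clusters it was also smaller, 0.05 to 0.30, with the interval above 0 in 10 of 10. Its copy Gm10076, which matches the end of Rpl41 over 142 bases at 100% identity and is not a member, went the other way. Gm10076 had 3322 UMIs or 93.0 CPM in CD25KO and 13917 UMIs or 393 CPM in CD25WT, a log2 ratio of -2.08 (-2.13 to -2.02). That ratio lay between -2.26 and -1.84 in the 10 clusters. Rpl41 and Gm10076 added up had a log2 ratio of -0.04.

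Fau is not in the family by symbol, but it carries the small subunit protein S30 as a fusion with a ubiquitin-like protein. It had 7188 CPM in CD25KO and 8038 CPM in CD25WT, a log2 ratio of -0.16. Standardised to the CD25WT mix of states, the log2 ratio of Fau was 0.07. Within clusters it was below 0 in 5 of 10, with the interval below 0 in 2.

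**Figure D5:**
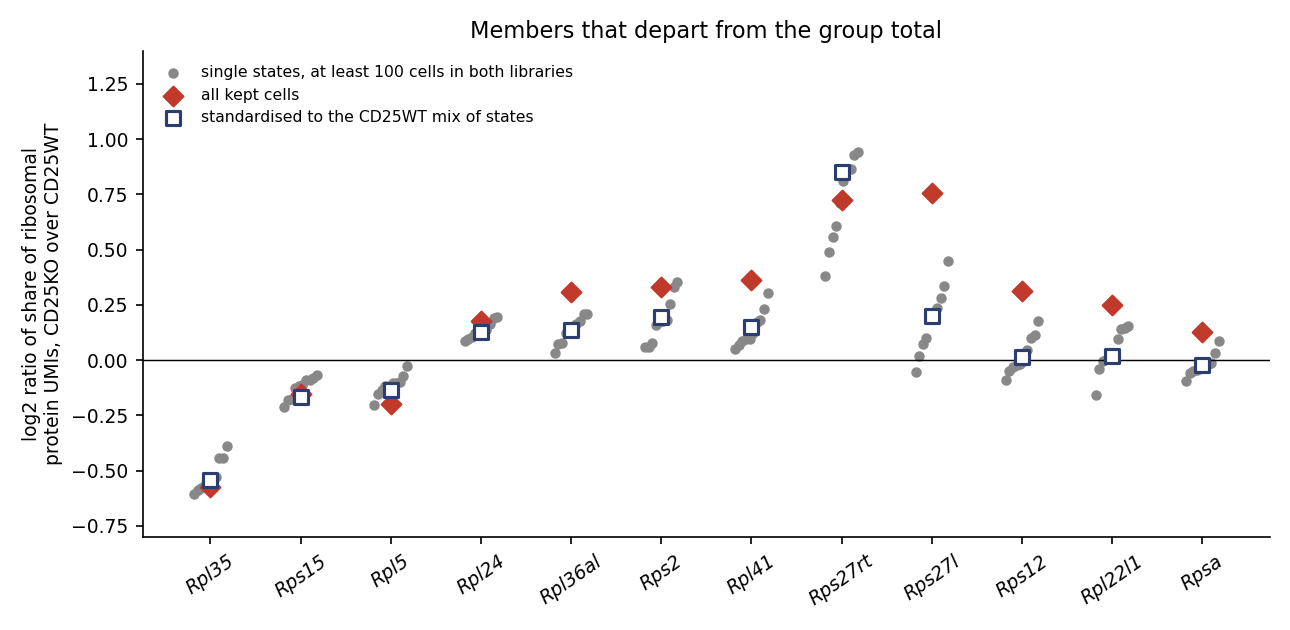
For 12 members, the y axis gives the log2 ratio of the gene's share of ribosomal protein UMIs in CD25KO over CD25WT, over all kept cells (red diamonds), standardised to the CD25WT mix of states (open squares) and in the 10 clusters with at least 100 cells in both libraries (grey points). For Rpl35 (-0.57 and -0.54) and Rps27rt (0.72 and 0.85) the diamond and the square lie close together, whereas for Rps27l (0.76 and 0.20), Rps12 (0.32 and 0.01) and Rpl22l1 (0.25 and 0.02) the square is closer to 0.

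For Rps12 and Rpl22l1, the departure in all kept cells was hardly seen after standardisation. Rps12 had 4214 CPM in CD25KO and 4290 CPM in CD25WT, a log2 ratio of -0.03. Its within-family ratio was 0.32 in all kept cells and 0.01 after standardisation, and it was above 0 in 4 of 10 clusters. Rpl22l1, the paralogue of Rpl22, had 0.25 in all kept cells and 0.02 after standardisation, and was above 0 in 7 of 10 clusters. Rps27l and Rps2 kept part of their departure. Rps27l had 244 CPM in CD25KO and 183 CPM in CD25WT, a log2 ratio of 0.42 (0.19 with TMM factors), with a within-family ratio of 0.76 in all kept cells and 0.20 after standardisation. That ratio was above 0 in 9 of 10 clusters, with the interval above 0 in 3, and reached 0.45. Rps27l also varied most across states: in CD25KO it stood at 136 CPM in central-like cells led by Ly6c1, 236 CPM in effector-like cells led by Ccl5 and 480 CPM in cycling-like cells. In CD25WT the values were 146, 182 and 399 CPM in the same clusters. Rps2, a small subunit protein at the entry of the mRNA channel, had a within-family ratio of 0.33 in all kept cells and 0.20 after standardisation. It was chosen for the same direction in all 10 clusters, and its interval was above 0 in 9 of them.

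Of the members chosen for one direction in all 10 clusters, Rpl24 (0.18 within the family), Rpl27 (0.17) and Rpl36al (0.31) were higher besides Rps27rt, Rpl41 and Rps2. After standardisation these values were 0.13, 0.09 and 0.14. Rpl5 (-0.20), Rps15 (-0.15), Rps28 (-0.14) and Rps4x (-0.12) were lower besides Rpl35. Standardised, they had -0.14, -0.16, -0.07 and -0.05. Rpl24 is a large subunit protein at the bridge between the subunits, and it stood at 2952 CPM in CD25KO and 3309 CPM in CD25WT. Its interval was above 0 in 10 of 10 clusters. Rpl5, which binds the small ribosomal RNA of the large subunit and the p53 regulator Mdm2, stood at 1627 CPM in CD25KO and 2361 CPM in CD25WT. Rps15 stood at 2038 CPM in CD25KO and 2872 CPM in CD25WT. These departures are small beside that of Rpl35.

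Some ribosomal proteins have paralogues that can replace them, and the fraction within a pair does not depend on the library total. Rpl36al took 36.7% of the Rpl36a and Rpl36al UMIs in CD25KO (36.4% to 37.0%) and between 29.7% and 30.3% in CD25WT. It was higher in CD25KO in 10 of 10 clusters, with fractions of 30.2% to 44.3% in CD25KO and 28.1% to 39.2% in CD25WT. The intervals of both libraries overlapped in the Satb1-led, Sostdc1-led and Nr4a1-led clusters. After standardisation to the CD25WT mix of states, which leaves the CD25WT value as it was, Rpl36al took 32.9% in CD25KO. The difference thus kept its direction but was smaller. Rpl22l1 took 29.9% of the Rpl22 pair in CD25KO and 27.7% in CD25WT, and was higher in CD25KO in 6 of 10 clusters. Standardised to the CD25WT mix of states, the direction turned, with 27.3% in CD25KO and 27.7% in CD25WT. Rps27l took 3.23% of the Rps27 pair in CD25KO and 1.89% in CD25WT, and standardised it took 2.10% in CD25KO and 1.89% in CD25WT. Rpl7l1 took 2.60% of the Rpl7 pair in CD25KO and 1.93% in CD25WT. Its direction turned as well when standardised, with 1.84% in CD25KO and 1.93% in CD25WT. The members below the minimum were close to absent: Rpl3l had 0 UMIs in CD25KO and 1 in CD25WT, Rpl10l had 12 in CD25KO and 3 in CD25WT, and Rpl39l had 48 in CD25KO and 53 in CD25WT. Rpl36a shares its end with Rpl36a-ps1 (15.9 CPM in CD25KO and 13.4 CPM in CD25WT), which bears on its pair.

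Besides Rpl35, Rps27rt, Rps27, Rpl41 and Rpl36a, near-identical ends among the listed genes were found for Rpl10, Rpl29, Rpl36, Rps18 and Rpl7l1, 10 of 83 members in all. The copies of Rpl10, Rpl29, Rpl36 and Rps18 had 27.8 CPM or less in both libraries, against member levels of 1941 CPM or more. With its copy added, Rpl10 had a log2 ratio of -0.34, against -0.35 alone. Reads that match both genes may be missing from this sum, so it does not measure the effect of the copy. For Rpl7l1 the shared stretch occurs in 5 unrelated genes, and its value is uncertain.

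The rest of the translation machinery was described from lists. Of 24 other translation genes, 16 had a log2 ratio below 0, where 17.2% of all genes did, with a median of -0.08, against 0.22 for all genes. With TMM factors 23 of the 24 were below 0 (51.6% of all genes), and after standardisation 10 were (35.2% of all genes), with a median of 0.02. At least 1.5-fold lower was 1 of them (1.73% of all genes), and 2 were with TMM factors (3.70% of all genes). Among those with the largest ratios, the ribosome-bound scaffold gene Rack1 had -0.40 and the elongation factor gene Eef1b2 had -0.36, while the histone chaperone gene Nap1l1 had 0.41. After standardisation these were -0.20, -0.13 and 0.11. Of 25 ribosome biogenesis genes, 22 passed 10 CPM and 18 of these were below 0, where 17.2% of all genes were, with a median of -0.14. With TMM factors all 22 were below 0 (51.6% of all genes), with a median of -0.36. After standardisation 18 were (35.2% of all genes), with a median of -0.20, against 0.07 for all genes. In clusters with at least 100 cells in both libraries, the share of UMIs from this list went both ways. It was higher in CD25KO in the Naip5-led, Ccl5-led, Satb1-led, Sostdc1-led and Nr4a1-led clusters and lower in the others. In Nr4a1-led cells it was 0.410% in CD25KO and 0.368% in CD25WT, and in Ly6c1-led cells 0.126% and 0.143%. The Lrrc32-led cluster, with 34 CD25KO cells, had 0.112% and 0.169%. Myc, which drives ribosome production, had 15.1 CPM in CD25KO and 39.6 CPM in CD25WT. Its log2 ratio was -1.39, and -0.74 after standardisation. Myc was among the leading genes of the Lrrc32-led cluster, so the standardised value depends in part on the 34 CD25KO cells there. The nucleolar genes Mybbp1a, Fbl and Nop56 had -0.49, -0.41 and -0.39, and after standardisation -0.34, -0.31 and -0.26.

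The mitochondrial ribosome is a separate particle, encoded by nuclear genes, and its genes lay near the median of all genes. Of 76 measured genes out of 78, 11 were below 0 (17.2% of all genes) and the median was 0.19, against 0.22 for all genes, and with TMM factors it was -0.04, against -0.01 for all genes. By size, 1 of the 76, Mrps6, was at least 1.5-fold higher in CD25KO (11.6% of all genes), with 101 CPM in CD25KO and 66.9 CPM in CD25WT. Mrpl57, Mrpl51 and Mrpl27 had log2 ratios of 0.45, 0.43 and 0.42. Of 10 genes that restrain translation, 9 were measured, and 5 of these were below 0 (17.2% of all genes), with a median of -0.07. At least 1.5-fold lower were 2 of the 9 (1.73% of all genes). With TMM factors 8 were below 0 (51.6% of all genes), with a median of -0.29, and 3 were at least 1.5-fold lower (3.70% of all genes). Sesn1, an mTORC1 inhibitor, had 21.9 CPM in CD25KO and 59.2 CPM in CD25WT, and Ddit4, another mTORC1 inhibitor, had 106 CPM in CD25KO and 227 CPM in CD25WT. Pdcd4, which blocks the helicase of translation initiation, had a log2 ratio of -0.51, and Sesn3 had 0.28.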

How the data were processed

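Sorted splenic Tregs were profiled with droplet-based single-cell RNA sequencing, 1 library of 2 pooled spleens per genotype. The deposited matrices hold raw UMI counts per gene and barcode, made by the authors with Cell Ranger (version 6.0.0, per the file headers) on build mm10 per the submitters' processing notes. The annotation and strand setting used for counting are not given in the sources used here, and reads that match several genes may have been lost, which bears on members with near-identical copies. Free RNA was not removed, and no doublet caller was run.

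Barcodes under 500 detected genes or over 10% mitochondrial UMIs were dropped (578 CD25KO and 510 CD25WT barcodes). UMIs were summed per library and scaled to 1000000 per library (CPM). With 1 library per group there is no test: ratios have the exact conditional Poisson interval and shares the Clopper-Pearson interval, at 95% and for counting error only. Cells were clustered with Scanpy 1.11.5 and leidenalg 0.10.2 (2000 variable genes, 30 principal components, 15 neighbours, resolution 1), leaving ribosomal protein, mitochondrial, receptor segment, haemoglobin, Il2ra and sex-linked marker genes out of the features, though not out of the total used for scaling. Clusters were named from marker lists, with at least 3 detected markers and a mean log2 fold of at least 0.25. Standardised values weigh each cluster, also those with under 100 CD25KO cells, by its part of the CD25WT UMIs.

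Among members averaging 20 CPM or more, the 6 highest and 6 lowest within-family ratios of 1 direction in all clusters with at least 100 cells in both libraries were named, besides paralogues, stalk and fusion members, the 3 highest levels, the 3 most variable across CD25WT clusters, and up to 4 genes per other list. Rps20 and genes that share an end or a locus with a member were named after their values were seen. Some genes taken by these rules are not reported here. Members, lists and markers were chosen with earlier results of these data known. Copies were searched with the last 150 bases of each transcript (GENCODE mouse release on the same build; at least 100 aligned bases, 95% identity). Start windows are from RefSeq. TMM factors are from edgeR 4.0.16. The ratio step was tested on simulated data.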

Additional observations from a re-analysis of the deposited data

How the results depend on the processing

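The share of ribosomal protein UMIs was lower in CD25KO under all the alternatives run, in the order CD25KO and CD25WT: 30.8% and 38.8% with cells weighed equally, 31.1% and 38.9% with cells thinned to 2000 UMIs (375 CD25KO and 90 CD25WT cells left out), 30.2% and 37.9% with no cell filter, 31.5% and 40.5% with at least 1000 genes and at most 5% mitochondrial UMIs, 31.1% and 39.5% without B cell-like and erythroid-like clusters, 29.7% and 40.0% in cells with a Foxp3 UMI, 31.5% and 39.6% without cycling-like cells, and 37.0% and 39.3% with the CD25WT mix of states. Without the 5% of cells with most UMIs, where doublets would gather, it was 31.2% and 39.8%, an alternative chosen after seeing the data, as was leaving out barcodes kept in both libraries (31.0% and 39.3%). The members' median log2 ratio was -0.55 with TMM factors, -0.55 with median-of-ratios factors and -0.52 with a total free of ribosomal protein and mitochondrial genes, where 30, 30 and 22 members were at least 1.5-fold lower (3.70%, 3.68% and 3.34% of all genes), against 1 (1.73% of all genes). It was -0.32 with equal weights, -0.31 thinned, -0.32 with no cell filter, -0.34 with the stricter filter (2 members at least 1.5-fold lower, 1.72% of all genes), -0.42 in cells with a Foxp3 UMI (9 members, 2.69% of all genes), -0.087 standardised and -0.32 without cycling-like cells.

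Under the other clusterings (resolution 0.5, resolution 1.5, 15 components, 50 components), the central-like share was 41.5%, 42.7%, 42.0% and 41.9% in CD25KO and 43.6%, 43.8%, 43.8% and 43.6% in CD25WT. The effector-like share was 28.5%, 26.9%, 26.6% and 27.7% in CD25KO and 32.8%, 30.6%, 29.6% and 31.5% in CD25WT. The median per cell was 42.2% (central-like) and 27.1% (effector-like) in CD25KO and 44.2% and 30.7% in CD25WT, and in cells of 3000 to 6000 UMIs the shares were 42.6% and 27.3% in CD25KO and 43.4% and 30.8% in CD25WT. The cause of each of these shifts was not tested. No paired analysis was possible because each group is 1 library, and no library could be left out. Depth limits the single-cluster values of Rps27rt, Rps27l, Rpl7l1 and Rps19bp1 most.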
